A study of Mus musculus with 2 samples.

Results

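The genes described here are 41 of the 32285 genes in the count matrices, chosen by symbol because they act in DNA replication or mitosis. They comprise 18 replication genes, of which 13 load or move with the replication fork and 5 supply nucleotides, and 20 mitotic genes, of which 11 encode cyclins, kinases, checkpoint or ubiquitin ligase proteins and 9 act on chromosomes, spindle or kinetochore. The other 3, Stmn1, Tubb5 and Hmgb2, are widely expressed and entered neither sum. All 41 symbols were found once in both matrices, and no member overlapped another gene on its own strand in the annotation used.

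RNA had been counted by 3′ droplet sequencing (10x Genomics) in 2 libraries of mouse immune cells. The cells came from small intestine lamina propria, a connective tissue under the epithelium. Both groups carried floxed Aster-A (Gramd1a, a carrier of cholesterol between membranes). The F/F pool carried the floxed alleles alone, and the CD4-Cre pool carried CD4-Cre; Aster-A F/F, in which Cre under Cd4 control deletes floxed segments in αβ T cells and not in plasma cells, macrophages or dendritic cells. The mice were female littermates aged 10 to 12 weeks, fasted for 16 h and then exposed to olive oil by gavage for 2 h. Live CD45+ cells negative for EPCAM, Ter119 and CD31 were sorted, 100000 from each of 3 mice per genotype, and pooled before loading. Because each genotype is 1 pool, nothing was tested, and the 95% intervals given describe counting error alone, without variation between mice.

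Proliferating cells copy their DNA in S phase and divide it in mitosis. In the first step the MCM helicase is loaded on origins by Cdc6 and Cdt1, and Pcna then clamps polymerases to the fork while Tyms, Rrm1, Rrm2, Dut and Tk1 keep up the supply of deoxynucleotides. Later, cyclins A and B with Cdk1 drive entry into mitosis, Aurora and Plk1 kinases build the spindle, Bub1 and Bub1b hold the checkpoint, and Cdc20 and Ube2c mark cyclins for destruction. In the gut wall, plasmablasts (dividing precursors of plasma cells), activated T cells and germinal centre B cells are known to divide, whereas mature plasma cells do not.

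The 2 libraries held 222838658 (F/F) and 200580083 (CD4-Cre) unique molecular identifiers (UMIs), and 12594 and 12526 cells were kept. Only 47 cell barcodes were shared, 0.373% and 0.375% of the cells. Joint clustering gave 23 clusters. The members, the other cell cycle genes used below to call cycling cells and histone genes were left out of the clustering. Other genes that vary with the cycle were not, so a cluster may still follow it in part. Of the clusters, 7 were plasma-like (Jchain, Mzb1, Tnfrsf17) and 9 held T and innate lymphoid cells, among which 2 were CD4 T-like (Cd4, Cd5 and Cd40lg in one, Foxp3 and Il10 in the other). Levels are given as CPM, counts-per-million of the UMIs of a class after immunoglobulin genes were left out, and pairs of values name F/F first. A cluster with RNA of both T and plasma cells was kept apart, and no doublet caller was used. Gramd1a, the targeted gene, stood at 51.2 (F/F) and 43.3 CPM (CD4-Cre) in CD4 T-like cells (ratio 0.847, 0.690 to 1.04). Which exons are floxed was not given in the sources used here; a 3′ tag may lie outside the deleted part and checks nothing.

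Promoter letters separated the replication from the mitotic genes. RefSeq windows from 250 bases before to 50 after the start (GRCm38.p6) were matched for 34 of the 41 members, 16 of them replication and 16 mitotic. Letters of the E2F site, which drives genes at the entry to S phase, were searched as TTTGGCGC, TTTCCCGC, TTTCGCGC and TTTGCCGC on both strands. They occurred in 9 of 16 replication windows (Mcm3, Mcm5, Mcm6, Mcm7, Cdc6, Cdt1, Pclaf, Dtl and Uhrf1) and in 1 of 16 mitotic windows, that of Cdk1, against 2.61% of all 27025 genes. The cell cycle homology region, an element of promoters active in late cycle, was searched as TTTGAA and TTCGAA and showed the reverse. It occurred in 13 of 16 mitotic windows and in 2 of 16 replication windows, those of Mcm2 and Mcm7, against 21.7% of all genes. CCAAT, searched on both strands, occurred in 15 of 16 mitotic and 11 of 16 replication windows against 41.1% of all genes, and both elements together in 81.3% and 12.5% against 9.65%.

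The 150 bases upstream of the start of 5 members with many UMIs, outside any annotated gene, are shown because they illustrate both patterns and their exceptions. Mcm6 (chr1:128359706-128359855, minus strand) and Tyms (chr5:30073626-30073775, minus strand) are replication genes. Mki67 (chr7:135716380-135716529, minus strand), Top2a (chr11:99024190-99024339, minus strand) and Birc5 (chr11:117849087-117849236, plus strand) are mitotic genes. Each is written 5′ to 3′ on the strand of the gene. Capitals mark E2F letters in the replication genes, and homology region and CCAAT letters in the mitotic genes.
Mcm6: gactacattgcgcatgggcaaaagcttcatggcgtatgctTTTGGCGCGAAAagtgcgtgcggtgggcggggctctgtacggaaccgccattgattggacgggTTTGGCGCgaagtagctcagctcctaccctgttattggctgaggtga
Tyms: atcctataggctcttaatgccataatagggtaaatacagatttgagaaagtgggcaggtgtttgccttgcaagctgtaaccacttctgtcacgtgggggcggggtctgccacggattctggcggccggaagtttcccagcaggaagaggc
Mki67: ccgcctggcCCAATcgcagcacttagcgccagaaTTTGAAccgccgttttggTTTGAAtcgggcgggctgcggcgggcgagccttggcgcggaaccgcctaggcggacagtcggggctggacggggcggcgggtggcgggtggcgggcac
Top2a: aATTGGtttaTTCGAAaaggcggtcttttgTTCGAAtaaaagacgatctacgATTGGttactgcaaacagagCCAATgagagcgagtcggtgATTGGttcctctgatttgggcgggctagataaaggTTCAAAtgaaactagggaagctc
Birc5: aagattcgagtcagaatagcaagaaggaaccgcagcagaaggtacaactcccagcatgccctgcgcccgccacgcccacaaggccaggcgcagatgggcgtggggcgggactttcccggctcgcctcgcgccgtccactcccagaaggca
In Mcm6 the first pair of E2F matches overlap on opposite strands, and 2 copies of ATTGG, the other strand of CCAAT, are left in lower case. Top2a held the homology region letters at 3 places and CCAAT or ATTGG at 4 within these bases. Tyms and Birc5 held none of the letters searched in their windows. A match describes the letters in a window and does not show that a factor binds there.

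Cells were called cycling from 71 other cell cycle genes, 23 of replication and 48 of mitosis, none of them a member. A cell counted as cycling with at least 3 of these genes among 1500 UMIs drawn from it, immunoglobulin genes left out. By that measure 9.42% (8.91 to 9.95) of F/F cells and 8.14% (7.66 to 8.64) of CD4-Cre cells were cycling. Among the named classes, B-like cells had the highest shares, 23.4% (14.5 to 34.4) in F/F and 45.4% (37.6 to 53.4) in CD4-Cre, from 18 and 74 cells. Of these, plasma-like cells followed with 11.3% (10.6 to 12.0) and 10.1% (9.42 to 10.8), and CD4 T-like cells with 6.65% (4.97 to 8.67) and 5.63% (4.36 to 7.13). An unnamed lymphoid cluster led by Gzma, Cd7, Trdc and Cd8a, numbered 14, stood at 9.81% (6.51 to 14) in F/F and 4.15% (2.39 to 6.64) in CD4-Cre. The mixed T and plasma cluster stood at 7.88% (5.45 to 10.9) and 11.0% (8.30 to 14.1), and an unnamed cluster led by H2-Aa and Lyz2, numbered 18, at 8.86% (3.64 to 17.4) and 1.27% (0.0320 to 6.85), from 7 cells and 1 cell. The intervals of the libraries overlapped in CD4 T-like cells and narrowly in plasma-like cells and cluster 14, but not in B-like cells.

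Other classes had fewer cycling cells, and ILC2-like cells and cluster 7 came closest to a background of the call. None of 44 F/F and 61 CD4-Cre ILC2-like cells was cycling; 3 counts of these totals would be 6.82% and 4.92%, and the exact intervals reach 8.04% and 5.87%. The median depths were 3829 and 3662 UMIs in ILC2-like cells against 17489 and 17383 in plasma-like cells. A lymphoid cluster led by Zbtb16, numbered 7, stood at 0.806% and 0.666%. Macrophage-like cells stood at 1.94% and 2.66%, from 12 and 11 cells, and cDC1-like cells at 5.60% and 4.79%, from 19 and 23 cells. Without thinning, the plasma-like shares were 32.5% and 29.2% and those of T and innate lymphoid cells 12.1% and 11.1%, so shares at unequal depth are not comparable between classes.

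**Figure D1:**
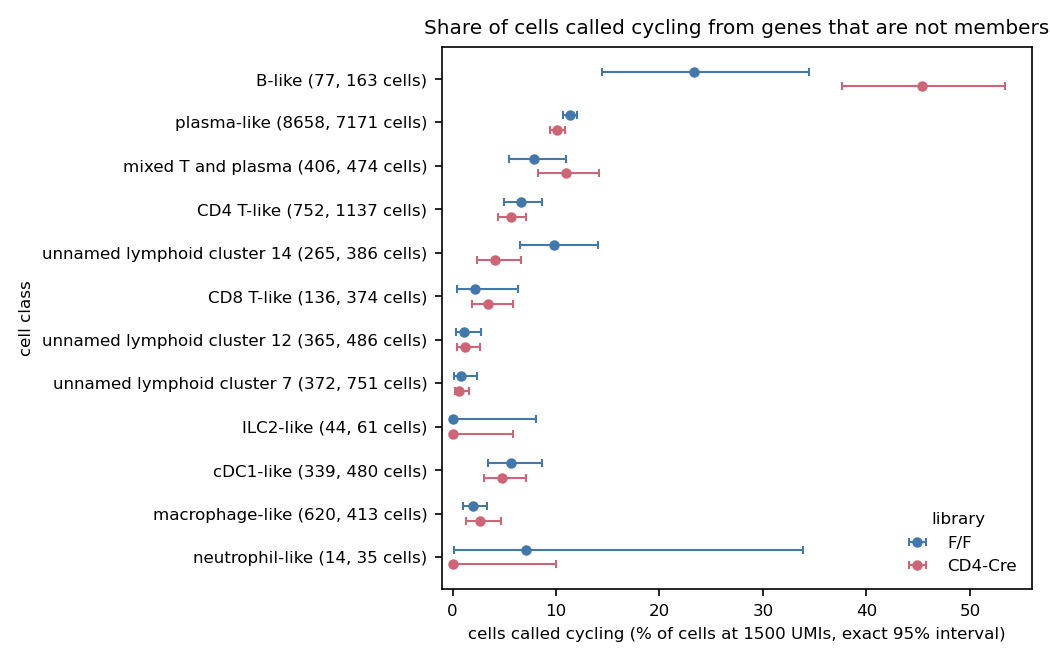
Share of cells called cycling (horizontal axis, percent of cells at 1500 UMIs) for each class (vertical axis, with the number of F/F and CD4-Cre cells); points are libraries and bars exact 95% intervals. B-like cells lie highest, at 23.4% and 45.4%, plasma-like cells near 11.3% and 10.1%, and ILC2-like cells at 0.

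Plasma-like cells held most of the RNA of these genes. They held 84.4% of the cycling cells in F/F and 72.9% in CD4-Cre, 80.3% and 63.0% of the UMIs of replication genes, and 85.9% and 72.7% of those of mitotic genes. Within them, 1 cluster, numbered 2 and led by Ssr2, Mzb1, Ly6d and Fkbp11, had 826 of 1360 F/F cells (60.7%) and 609 of 943 CD4-Cre cells (64.6%) cycling. It alone held 66.6% of all cycling cells of the study. Its replication genes summed to 1800 and 2000 CPM and its mitotic genes to 2709 and 2938. A second cluster, numbered 6, stood between, with 10.5% and 7.67% cycling. The other 5 plasma-like clusters had 0.276% to 2.53% cycling cells, 147 to 245 CPM of replication genes and 42.0 to 245 of mitotic genes.

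Immunoglobulin RNA was lower in the cycling plasma-like cells. It made up a median of 25.5% of their UMIs in F/F and 28.9% in CD4-Cre, against 52.6% and 54.4% in the plasma-like cells not called cycling. The summed level of 12 plasma cell marker genes was 45017 and 49017 CPM in cycling and 125163 and 137042 in the other plasma-like cells. The sum of 12 B cell marker genes was also lower in cycling cells, 573 and 615 against 1170 and 1298 CPM. These 12 include Cd79a, which was seen in 85.9% to 99.0% of cells of each plasma-like cluster, so the sum is not particular to B cells. Ms4a1, one of the 12, went the other way by share of cells. It was seen in 8.67% of cells of cluster 2 and in 0.831% to 1.90% of the other plasma-like clusters, whose median depths were lower. Prdm1, one of the plasma markers, was also seen most often in cluster 2, in 56.7% of cells against 31.6% to 53.1%.

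**Figure D2:**
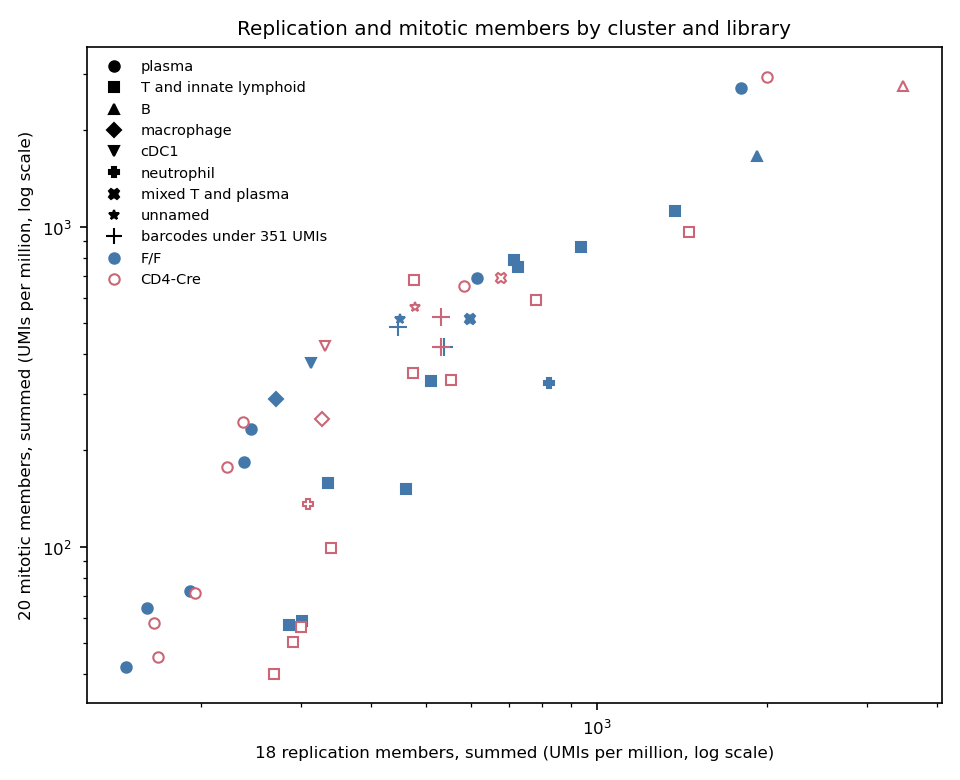
Summed level of the 18 replication genes (horizontal axis) and the 20 mitotic genes (vertical axis), in CPM on log axes, with 1 point per cluster and library; shapes are classes, filled points F/F, open points CD4-Cre, and crosses pools of barcodes with few UMIs. The cycling plasma-like cluster (1800 and 2709 in F/F) and B-like cells lie at the upper right, and the crosses lie above most plasma-like clusters.

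Barcodes too poor in UMIs to be cells carried the members too. Those with 10 to 100 or 150 to 350 UMIs held 445 to 538 CPM of replication genes and 420 to 524 of mitotic genes. That is above the level in 5 of the 7 plasma-like clusters and in ILC2-like cells (286 and 269 of replication, 57.2 and 40.2 of mitotic genes). It is also above macrophage-like cells (271 and 327, 289 and 251) and above the replication genes of cDC1-like cells (312 and 331). At 150 to 350 UMIs the replication genes of such barcodes stood at 445 CPM in F/F and 531 in CD4-Cre. The part of free RNA in the levels of these and other classes, and in their ratios, was not tested.

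Members differed in how widely they were seen across classes. Levels are compared between classes within a gene only, since 3′ UMIs were not set against gene length. Mki67, the proliferation antigen that coats mitotic chromosomes (chromosome 7, 135689784 to 135716361, minus strand, GRCm38), stood at 241 and 316 CPM in B-like cells (F/F, then CD4-Cre). It reached 147 and 150 in plasma-like cells, 95.3 and 77.0 in CD4 T-like cells, 62.5 and 65.8 in macrophage-like cells, 46.3 and 49.2 in cDC1-like cells and 5.72 and 4.02 in ILC2-like cells, the latter from 1 UMI in each library. Pclaf, a Pcna partner at the fork (chromosome 9, 65890237 to 65903266, plus strand), ran from 404 and 716 in B-like to 28.1 and 28.4 in macrophage-like cells. CD4 T-like cells matched plasma-like cells in it, at 149 and 147 against 142 and 132. For Pcna the span was narrow: 163 and 289 in B-like cells, 133 and 153 in CD4 T-like, 93.9 and 89.1 in plasma-like, 94.9 and 94.9 in macrophage-like, 66.4 and 67.0 in cDC1-like and 91.4 and 68.3 in ILC2-like cells. Thus Pcna was highest in B-like and CD4 T-like cells and spanned a smaller range over these classes than Mki67 or Pclaf did. In barcodes too poor to be cells Pcna stood at 60.4 to 94.3 CPM. Its levels in plasma-like, cDC1-like and ILC2-like cells were not above that range, and those in macrophage-like cells hardly so. Mki67 stood at 55.0 to 60.4 in these barcodes, close to its macrophage-like levels and above its cDC1-like and ILC2-like ones. The part of free RNA in the spans of these genes was not tested.

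**Figure D3:**
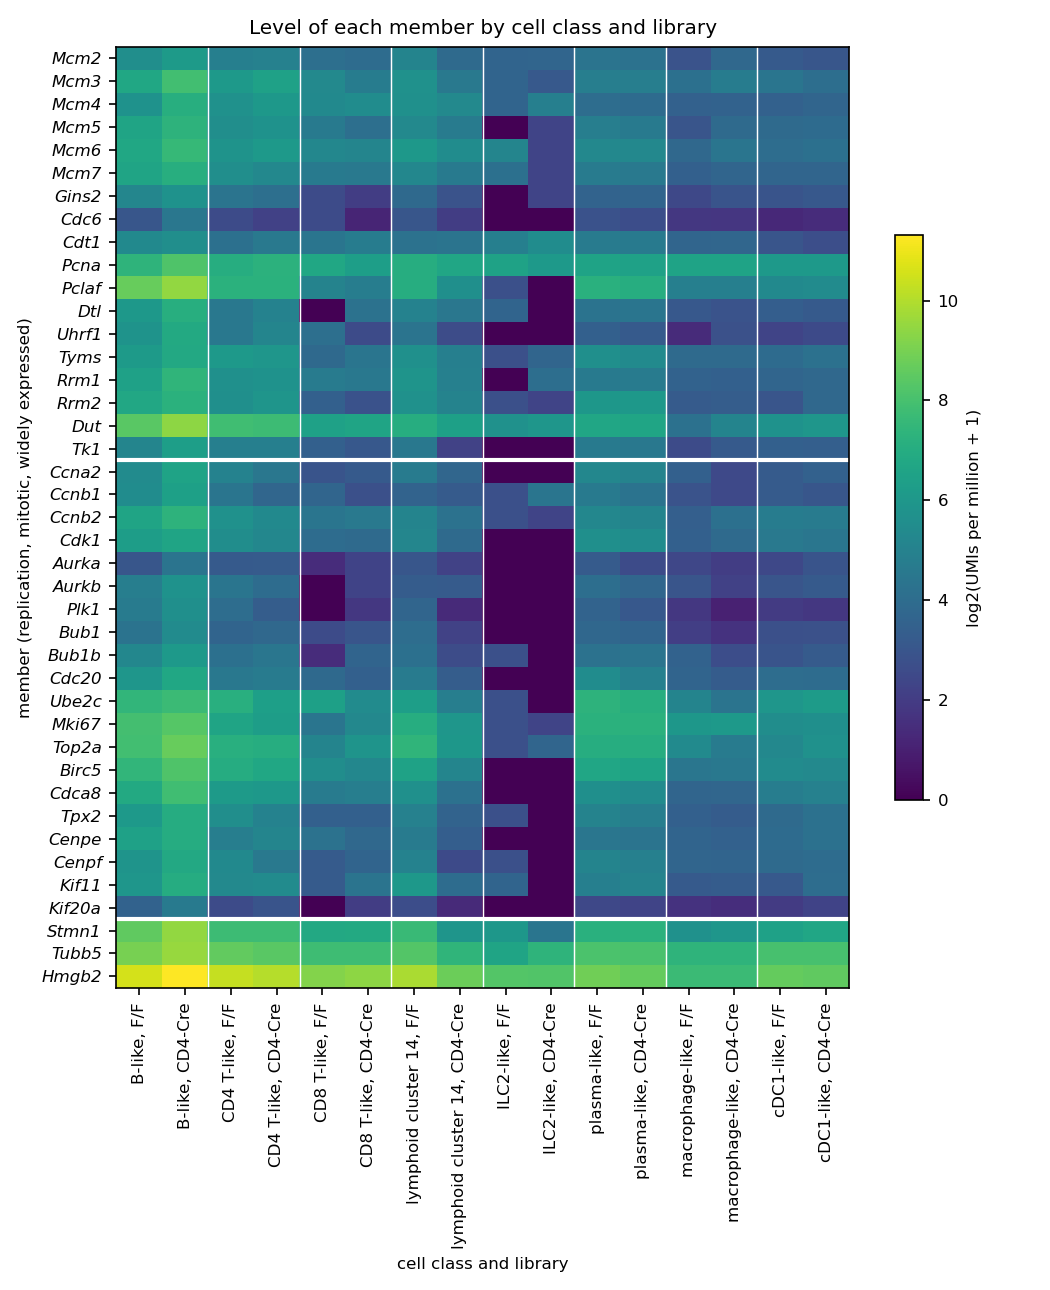
Level of each member (rows, grouped as replication, mitotic and widely expressed) by class and library (columns), as log2 of CPM plus 1, to be read along a row. B-like columns are brightest, and in ILC2-like columns most mitotic genes are at or near 0 while Pcna and Hmgb2 are not.

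Members separated cells by the call although none had entered it. In plasma-like cells all 41 were higher in cycling than in other cells in both libraries together, with a median of 11.1-fold. Mitotic genes differed more than replication genes, with medians of 15.3-fold (5.34 for Bub1b to 20.9 for Plk1) and 6.11-fold (1.80 for Cdt1 to 14.4 for Pclaf). In T and innate lymphoid cells all 41 were higher as well, with medians of 29.8-fold for mitotic genes (8.4 for Aurka to 61.0 for Bub1) and 8.15-fold for replication genes (1.53 for Cdt1 to 44.7 for Pclaf). The calling list holds more mitotic than replication genes, and its part in this order was not tested. The medians over all members were 5.48-fold in B-like, 24.1-fold in macrophage-like and 13.2-fold in cDC1-like cells.

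Single genes differed in the level of the other cells, the denominator of this fold. Top2a, the topoisomerase that untangles sister chromatids (chromosome 11, 98992943 to 99024189, minus strand), went from 32.2 to 488 CPM in plasma-like cells and from 20.1 to 603 in T and innate lymphoid cells. Rrm2, the regulated subunit of ribonucleotide reductase, went from 18.8 to 222 and from 5.34 to 228. Pclaf went from 35.3 to 509 and from 13.4 to 597. In these 3 genes the cycling cells of both classes were closer to each other than the other cells were. Cdt1 stood at 21 and 37.8 CPM in other and in cycling plasma-like and at 19.8 and 30.3 in T and innate lymphoid cells, and Pcna at 59.3 and 209 and at 93.8 and 308. Cdt1 and Pcna marked cycling cells least among the replication genes of both classes.

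**Figure D4:**
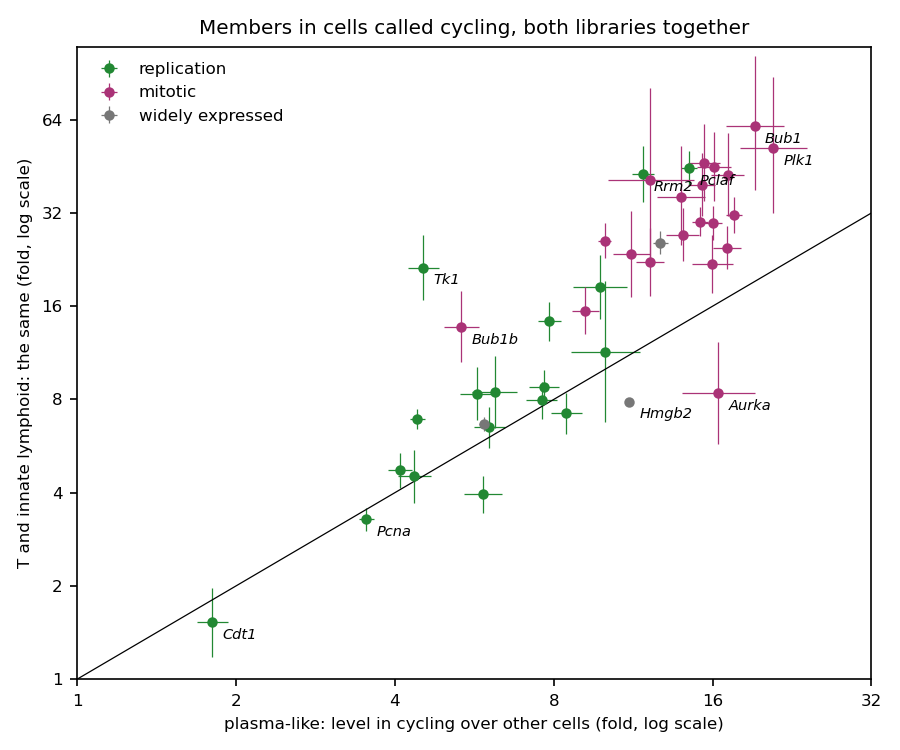
Fold of each member in cycling over other cells, both libraries together, in plasma-like (horizontal) and T and innate lymphoid cells (vertical), on log axes with 95% intervals and the line of equality. Cdt1 (1.80 and 1.53) and Pcna lie lowest, and Bub1 and Plk1 at the top.

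Most cycling cells showed RNA of both groups of genes. At 1500 UMIs, 78.1% (76.1 to 80.1) of 1704 cycling plasma-like cells held both replication and mitotic members, 6.69% replication members only and 12.4% mitotic members only. Among 200 cycling T and innate lymphoid cells these shares were 66.0% (59.0 to 72.5), 12.0% and 6.50%, and 15.5% held no member. Mitotic members outnumbered replication members in 57.7% (55.4 to 60.1) of the plasma-like, 38.5% (31.7 to 45.6) of the T and innate lymphoid, 37.0% (27.1 to 47.6) of the 92 B-like and 71.4% (55.4 to 84.3) of the 42 cDC1-like cycling cells. These shares take both libraries together. Macrophage-like cells stood at 60.9% (38.5 to 80.3) of 23, and CD4 T-like cells at 42.1% (32.9 to 51.7). By library the shares were 57.6% and 57.9% in plasma-like and 68.4% and 73.9% in cDC1-like cells. They were lower in T and innate lymphoid (41.3% and 36.1%) and B-like cells (44.4% and 35.1%). In F/F the B-like interval overlapped those of plasma-like and cDC1-like cells, and the lymphoid interval that of cDC1-like cells. These differences were not tested.

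Plasma-like cells, not a target of the Cre line, had most members lower in CD4-Cre by less than 1.5-fold. A gene was called higher or lower in CD4-Cre with at least 100 UMIs over both libraries, a ratio of at least 1.5-fold and an interval off 1. Of the 41 members, all with enough UMIs, 0 were higher (1.23% of all 12189 genes were) and 1 was lower (1.61% of all genes were). That gene was Aurka, the kinase that matures centrosomes (chromosome 2, 172356190 to 172370535, minus strand), at 8.44 CPM in F/F and 4.96 in CD4-Cre, a ratio of 0.587 (0.515 to 0.669). Below 1 were 32 of 41 ratios, against 45.6% of all genes, and 23 by their interval, against 18% of all genes. The median log2 ratio was -0.11 against 0.02 over all genes. Cdc20, the activator of the anaphase ubiquitin ligase, stood at 43.9 and 29.4 (0.671, 0.636 to 0.709), and Plk1 at 11.0 and 7.78 (0.707, 0.635 to 0.788). Mki67 and Top2a were close to 1, at 1.03 (1.0 to 1.05) and 1.02 (0.990 to 1.05), and Kif11, a spindle motor, was highest at 1.12 (1.06 to 1.19). Summed, the replication genes stood at 722 and 686 CPM (ratio 0.950, 0.939 to 0.962) and the mitotic genes at 960 and 879 (0.916, 0.906 to 0.925).

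By role, the fork genes of plasma-like cells ranged from 0.830 (0.746 to 0.924) for Uhrf1 to 1.06 for Dtl. The helicase subunits Mcm3 and Mcm6 stood at 27.8 and 27.7 CPM (0.996, 0.937 to 1.06) and at 37.5 and 37.3 (0.995, 0.944 to 1.05), while Mcm5 stood at 27.5 and 23.4 (0.850, 0.798 to 0.907). Dtl, which targets Cdt1 for destruction at the fork, was 1.06 (0.985 to 1.14). Among the nucleotide genes Rrm1 and Rrm2, the subunits of ribonucleotide reductase, were both at 1.02, and Tyms, which makes thymidylate, was lowest at 47.9 and 42.1 (0.877, 0.836 to 0.920). The cyclins Ccna2, Ccnb1 and Ccnb2 had ratios of 0.878, 0.802 and 0.900, and the checkpoint genes Bub1 and Bub1b 0.925 (0.843 to 1.01) and 1.04 (0.967 to 1.12). Birc5 and Cdca8, which sit with Aurkb in the chromosomal passenger complex, stood at 103 and 93.0 (0.899) and at 48.0 and 43.5 (0.906), and Aurkb itself at 16.0 and 12.5 (0.779, 0.715 to 0.849). The ratios furthest below 1 were thus those of Aurka, Cdc20, Plk1 and Aurkb, 3 kinases and an activator of the anaphase ligase.

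The lower sums were not found inside the cycling plasma-like cells. There the replication genes summed to 1998 and 2194 CPM (1.10, 1.08 to 1.11) and the mitotic genes to 3279 and 3541 (1.08, 1.07 to 1.09). Of 41 members in cycling plasma-like cells, 0 were called higher (0.831% of all genes) and 1, again Aurka, was lower (1.61% of all genes), at 30.6 and 19.8 CPM. Mki67 was 464 and 561 in these cells and Top2a 447 and 547. In plasma-like cells not called cycling all 41 ratios were below 1, against 45.5% of all genes. None of these 41 was called higher (0.87% of all genes) and 6 were lower (1.95% of all genes): Cdc6, Aurka, Aurkb, Plk1, Cdc20 and Ube2c, from 0.538 to 0.649. Cells just under the threshold for the call are among them, 573 in F/F and 388 in CD4-Cre with exactly 2 calling genes, and their part in these ratios was not tested.

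T and innate lymphoid cells had fewer mitotic transcripts in the CD4-Cre library. Mitotic genes summed to 595 CPM in F/F and 389 in CD4-Cre (0.653, 0.629 to 0.677), and replication genes to 751 and 649 (0.864, 0.837 to 0.891). Of the 39 members with enough UMIs, which leaves out Cdc6 and Kif20a, 0 were higher (1.27% of all genes) and 9 were lower (1.43% of all genes). All 9 were mitotic, of 19 mitotic genes that had enough UMIs, and none of 17 replication genes was called. Their median log2 ratios were -0.54 and -0.19, against 0.05 over all genes. Other cell cycle genes, those of the calling list, were lower in 2 of 14 replication genes and in 16 of 31 mitotic genes with enough UMIs, such as Tacc3 (15.6 and 7.92 CPM) and Prc1 (23.8 and 14.3), and none was higher.

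Among the cyclins and kinases, Ccna2 stood at 16.9 and 9.98 CPM (0.591, 0.469 to 0.744), Cdk1 at 26.6 and 17 (0.641, 0.535 to 0.766) and Plk1 at 8.50 and 3.78 (0.445, 0.309 to 0.635). Ube2c, the ubiquitin carrier of the anaphase ligase (chromosome 2, 164769898 to 164778822, plus strand), stood at 79.5 and 39.9 (0.502, 0.450 to 0.560). Ccnb1, the partner of Cdk1, had a ratio of 0.646 (0.486 to 0.857) from 107 and 98 UMIs, but with cells thinned to 1500 UMIs its log2 ratio was 0.32 instead of -0.63. Of the chromosome and spindle genes, Mki67 stood at 67.9 and 42.6 (0.628, 0.562 to 0.703) and Top2a at 98.0 and 65.3 (0.666, 0.608 to 0.730). Tpx2, a spindle assembly factor, stood at 25.2 and 14 (0.555, 0.458 to 0.672), and Cenpf, a kinetochore protein, at 23.2 and 10.4 (0.449, 0.363 to 0.556). Birc5 fell just short of the 1.5-fold limit, at 70.7 and 48.6 (0.687, 0.617 to 0.764), as was Kif11 at 28.8 and 20.1 (0.698, 0.590 to 0.825). Aurka, the gene that was lower in plasma-like cells, stood at 4.86 and 4.92 (1.01, 0.691 to 1.5).

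Replication genes of the lymphoid cells lay nearer to 1. The helicase subunits ranged from 0.745 (0.640 to 0.867) for Mcm7, at 34.1 and 25.4 CPM, to 0.982 (0.863 to 1.12) for Mcm4, at 41.8 and 41 CPM. Pclaf, at 87.2 and 61.5 (0.706, 0.641 to 0.777), and the thymidine kinase Tk1, at 16.8 and 12.1 (0.718, 0.576 to 0.895), were among the lowest, with Gins2, a helicase partner, at 11.5 and 8.20 (0.711, 0.544 to 0.930). Cdt1 and Dtl were above 1, at 1.10 (0.916 to 1.33) and 1.03 (0.845 to 1.26), with intervals that include 1.

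These ratios rest on few cells. Cells called cycling numbered 92 in F/F and 108 in CD4-Cre, 4.35% (3.52 to 5.30) and 3.18% (2.61 to 3.82), shares whose intervals overlap. They held 79.2% and 72.6% of the mitotic UMIs, and UMIs of the same cell are not independent, so the intervals of the ratios are too narrow. Their median depths were 12244.5 and 9295.5 UMIs against 3825 and 3591 in the other lymphoid cells, so each weighed more in the sums. With cells thinned to 1500 UMIs the log2 ratio of the mitotic sum was -0.40 instead of -0.62. Within cycling cells the mitotic genes summed to 3645 and 3475 CPM (0.953, 0.914 to 0.995) and the replication genes to 2920 and 3524 (1.21, 1.15 to 1.26). In them 1 of 37 members was higher (2.66% of all genes), Uhrf1 at 1.55, and 2 were lower (2.8% of all genes), Plk1 at 0.654 and Cenpf at 0.638. In the lymphoid cells not called cycling, of 27 members 0 were higher (1.17% of all genes) and 2 lower (0.984% of all genes), Gins2 at 0.623 and Ube2c at 0.556.

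**Figure D5:**
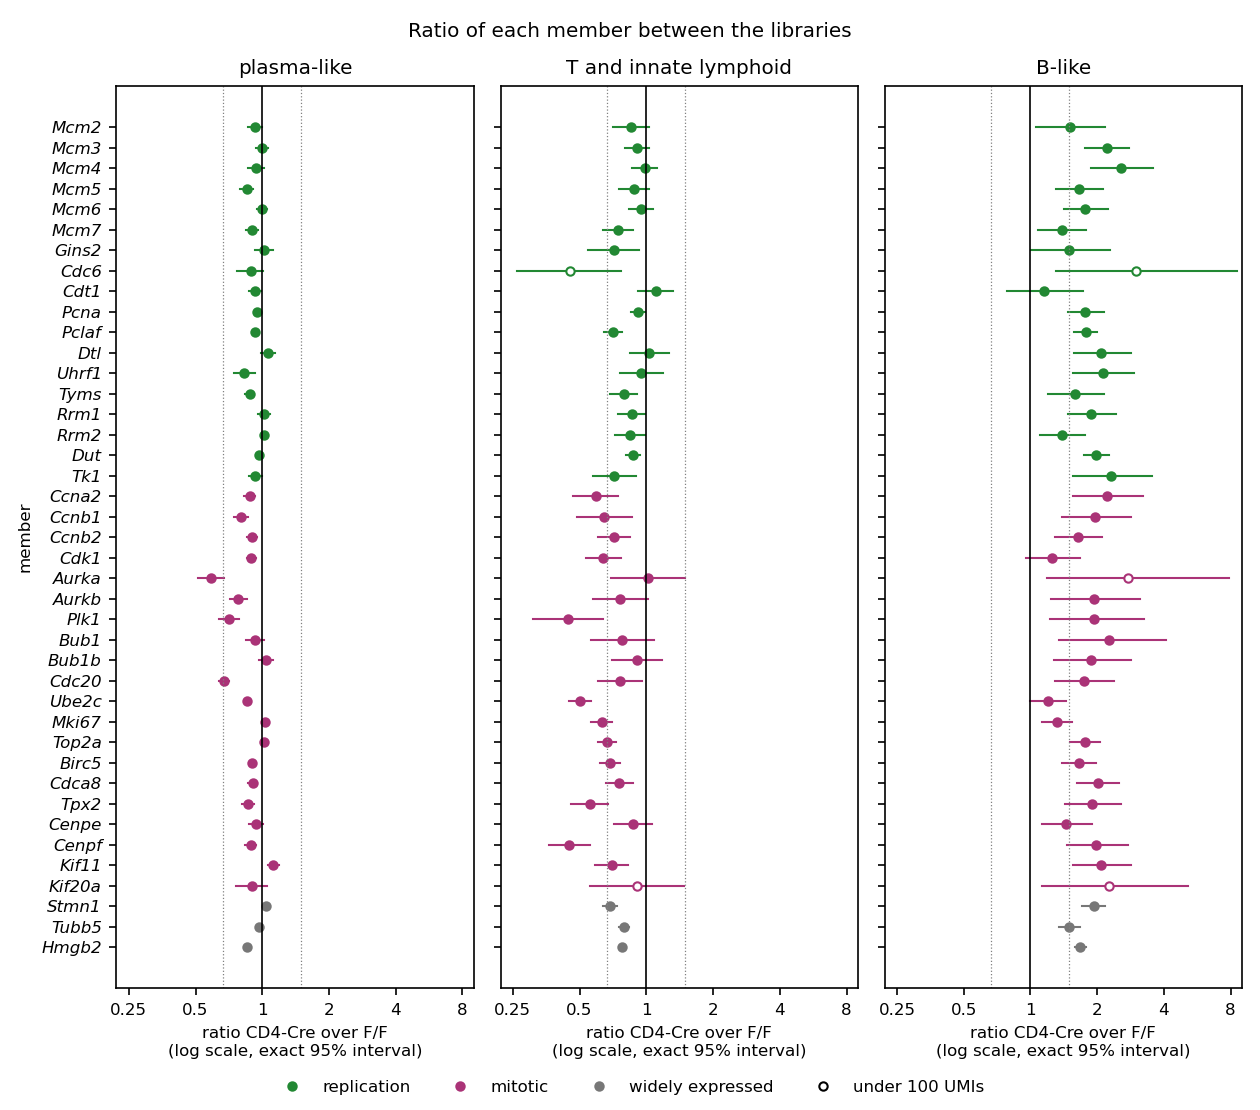
Ratio of CD4-Cre over F/F for each member (log axis, with 95% intervals) in plasma-like, T and innate lymphoid and B-like cells; dotted lines mark 1.5-fold and open points genes under 100 UMIs. Mitotic genes of T and innate lymphoid cells lie left of 1 except Aurka, most plasma-like points lie near 1, and all B-like points lie right of 1.

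Ratios varied between lymphoid clusters, a variation that was not tested. CD4 T-like cells are among the αβ T cells that CD4-Cre targets. In them replication genes summed to 1085 and 1166 CPM (1.08, 1.03 to 1.12) and mitotic genes to 974 and 802 (0.823, 0.786 to 0.862). Of 37 members, 1 was higher (1.92% of all genes), Uhrf1, which keeps DNA methylation through replication, at 22.2 and 34.5. All but 1 of the helicase subunits were above 1, from Mcm2 at 1.06 (0.818 to 1.38) to Mcm3 at 68.9 and 88.8 (1.29, 1.10 to 1.52), and Mcm7 was 0.810 (0.653 to 1.01). Lower were 3 (1.07% of all genes), Ccnb1 with a ratio of 0.625, Ube2c at 140 and 82.9 and Cenpf at 40.8 and 22.6. Mki67 in these cells was 95.3 and 77.0 (0.807, 0.694 to 0.939) and Top2a 140 and 130 (0.933, 0.828 to 1.05). Thus the call of lower mitotic genes in lymphoid cells as a whole covered only 3 of the 17 mitotic genes that reached the minimum in the CD4 T-like clusters.

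Cluster 14 showed low ratios over many genes. Its replication genes summed to 939 and 554 CPM (0.590, 0.545 to 0.638) and its mitotic genes to 866 and 331 (0.382, 0.347 to 0.420), from 26 and 16 cycling cells. Of 20 members with enough UMIs, 0 were higher (3.65% of all genes) and 17 were lower (2.49% of all genes), among them Kif11 at 65.3 and 14.8, Top2a at 168 and 62.7, Pclaf at 131 and 48.5 and Mki67 at 130 and 61.1. In cluster 7 the mitotic sum was 158 and 56 CPM (0.354, 0.284 to 0.440), with 3 and 5 cycling cells. In a cluster led by Klrd1 and Xcl1, numbered 12, it was 152 and 50.3 (0.332, 0.263 to 0.416), with 4 and 6 cycling cells. CD8 T-like cells stood at 329 and 349 (1.06, 0.900 to 1.26), and cluster 19, led by Il17a, at 746 and 679 (0.910, 0.739 to 1.12). Cluster 7, low in cycling cells, held 378 cells in F/F and 763 in CD4-Cre, so the makeup of the lymphoid class differed between the libraries.

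Plasma cell RNA ran through the lymphoid cells. Of the cycling lymphoid cells 15.2% in F/F and 14.8% in CD4-Cre had over 10% immunoglobulin UMIs, against 4.74% and 5.07% of the others. The 12 plasma markers, none at 0, summed to 13058 and 11103 CPM in cycling and 10909 and 10882 in other lymphoid cells. Without lymphoid cells over 10% immunoglobulin, a choice made after seeing the data, the log2 ratio of the mitotic sum was -0.51 instead of -0.62. With the mixed T and plasma cluster counted as lymphoid it was -0.24, and of the 9 genes called lower only Plk1, with a log2 ratio of -0.80, stayed past 1.5-fold. With cells thinned to 1500 UMIs, Ube2c (-0.93) and Mki67 (-0.89) stayed past it with intervals off 1, and the intervals of Ccna2, Ccnb1, Cdk1, Plk1, Tpx2 and Cenpf included 1. The mixed cluster itself had mitotic sums of 515 and 689 CPM (1.34, 1.27 to 1.40).

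B-like cells differed in the other direction. They numbered 80 in F/F and 169 in CD4-Cre, with median depths of 8462.5 and 14061 UMIs, and are led by Apoe, Ebf1, Ms4a1, Bank1 and Pax5. Replication genes summed to 1918 and 3482 CPM (1.82, 1.72 to 1.92) and mitotic genes to 1660 and 2752 (1.66, 1.57 to 1.76). All 38 ratios were above 1, where 41% of all genes were below 1, from Cdt1 at 1.15 (0.782 to 1.73) to Mcm4 at 2.55 (1.87 to 3.56), with a median log2 ratio of 0.82 against 0.12 over all genes. Of these, 29 were higher (16.9% of all genes) and 0 lower (10.2% of all genes). Every role was represented. Pcna stood at 163 and 289 CPM, Dut at 341 and 676, Tk1 at 34.6 and 79.6, Ccna2 at 42.9 and 94.8, Bub1 at 19.1 and 43.3, Top2a at 235 and 413 and Cdca8 at 114 and 230. Ratios under 1.5-fold included those of Ube2c, at 174 and 209 (1.20, 0.998 to 1.45), Cdk1 at 1.25 (0.955 to 1.67) and Mki67 at 1.31 (1.13 to 1.54). Within cycling B-like cells the ratio was 1.18 (1.11 to 1.25) for the replication sum, from 3647 and 4297 CPM, and 1.06 (0.996 to 1.12) for the mitotic sum, from 3262 and 3452. In the B-like cells not called cycling the ratios were larger. The replication sum was 470 and 1176 CPM (2.50, 2.15 to 2.92) and the mitotic sum 320 and 771 (2.41, 2.00 to 2.91). Of these, 4 cells in F/F and 11 in CD4-Cre had exactly 2 calling genes, and their part in the ratios was not tested.

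Markers of other cell types also differed between these B-like cells. In the B-like cells not called cycling, 59 and 89 cells, the 13 macrophage markers summed to 8397 CPM in F/F and 3450 in CD4-Cre, with 7 and 5 markers at 0, against 233 in cycling cells of either library. The 12 plasma markers summed to 16996 and 7163 in cycling and 33786 and 42667 in other B-like cells. Their part in the result was not tested, and with under 100 F/F cells from 1 pool differences between mice and between genotypes cannot be told apart.

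In myeloid cells, members were called in both directions in macrophage-like cells and only higher in cDC1-like cells. In macrophage-like cells the replication genes summed to 271 and 327 CPM (1.21, 1.10 to 1.32) and the mitotic genes to 289 and 251 (0.867, 0.790 to 0.952), from 12 and 11 cycling cells. Both sums lay below those of barcodes too poor to be cells. In such barcodes with 150 to 350 UMIs the replication sum was also higher in CD4-Cre (531) than in F/F (445). The part of free RNA in these ratios was not tested. Only 12 members had enough UMIs. Higher were 2 (1.76% of all genes), Mcm6 at 13.2 and 19.9 and Dut, which clears dUTP, at 17.5 and 33.1, and lower were 2 (3.19% of all genes), Ube2c at 33.3 and 19.5 and Top2a at 41.3 and 24.9. Over 10% immunoglobulin was found in 58.3% and 54.5% of the cycling macrophage-like cells against 18.8% and 14.9% of the others. In cDC1-like cells the sums were 312 and 331 (1.06, 0.995 to 1.13) and 376 and 424 (1.13, 1.07 to 1.19). Of 29 members 2 were higher (1.25% of all genes), Rrm2 at 6.99 and 13.2 and Kif11 at 7.91 and 15.3, and 0 lower (1.6% of all genes).

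The widely expressed members were higher in cycling cells as well. Hmgb2, a chromatin protein, stood at 314 and 301 CPM in ILC2-like cells, about its level of 291 to 353 in barcodes too poor to be cells, and at 464 and 398 in plasma-like and 1260 and 1074 in CD4 T-like cells. Stmn1, which destabilises microtubules, was 12.7-fold higher in cycling plasma-like and 25.7-fold higher in cycling lymphoid cells. For Tubb5, a β-tubulin, these values were 5.90 and 6.67, and for Hmgb2 11.1 and 7.87. Between the libraries they were below 1 in T and innate lymphoid cells, at 0.687 (0.639 to 0.739) for Stmn1, 0.796 (0.756 to 0.838) for Tubb5 and 0.774 (0.751 to 0.798) for Hmgb2, and none was called.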

How the data were processed

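Whole UMI counts per gene and barcode were deposited, unfiltered, for both libraries. Per the submitters' processing notes they were made with Cell Ranger 7.2.0 on mm10 (GRCm38), and Seurat 5.0.1 is also named. Barcodes under 1000 UMIs or 500 genes, or above 10% mitochondrial UMIs, were dropped. They were clustered jointly with scanpy 1.11.5 (Leiden at resolution 1 and seed 1, on 15 neighbours in 30 principal components of 2000 variable genes) without immunoglobulin, T cell receptor, mitochondrial, ribosomal, cell cycle, pancreatic and gastric genes or Gramd1a. Clusters were named from fixed markers, and some naming limits were set after the data were seen. Doublets were not called: an earlier run found none, which is not credible. Levels are counts-per-million (CPM) after 392 immunoglobulin genes were left out. Ratio intervals come from the exact binomial split of UMIs, and shares carry Clopper-Pearson intervals (scipy 1.17.1). UMIs of 1 cell are not independent, so ratio intervals are too narrow. The calculation was tested on simulated data. All members were accounted for in each class, and ratios are given from 100 UMIs over both libraries. Positions come from the annotation of GRCm38, and promoters from RefSeq (GRCm38.p6). A member was called where its ratio passed 1.5-fold with an interval off 1. Genes outside the members were named only from the calling list, up to 4 per class. Classes needed 100 cells per library, and B-like and ILC2-like cells were added after their values were seen. Clusters 18 and 19, and the neutrophil-like cells in the figure of cycling shares, also fell short of that number. Promoters of members with the most UMIs were shown, except those inside an annotated gene. The members and lists were chosen with earlier results of these data known. Alternatives changed cell filters, clustering, denominator, thinning and the call, and those on immunoglobulin-rich lymphoid cells, the mixed cluster and Pole2 were chosen after seeing the data.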

Additional observations from a re-analysis of the deposited data

Results flagged for a closer look

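The direction of the CD4-Cre over F/F ratio differed between classes, with intervals on opposite sides of 1. This difference was not tested, since each class has 1 value per genotype. The summed replication genes were higher in CD4-Cre in B-like cells (ratio 1.82) and macrophage-like cells (1.21) and lower in plasma-like cells (0.950) and T and innate lymphoid cells (0.864). The summed mitotic genes were higher in B-like cells (1.66) and cDC1-like cells (1.13) and lower in plasma-like cells (0.916), T and innate lymphoid cells (0.653) and macrophage-like cells (0.867). The B-like value rests on 80 F/F cells and the macrophage-like values on 12 and 11 cycling cells. The macrophage-like sums also lay below those of barcodes too poor to be cells.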

How the results depend on the processing

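No paired analysis was possible because each genotype is 1 pool, and no replicate could be left out. The ratios of the sums were recomputed under other settings in plasma-like cells and in T and innate lymphoid cells only. In these 2 classes no sum of replication or mitotic genes changed direction. The ratios of the sums in B-like, macrophage-like, cDC1-like and CD4 T-like cells were not recomputed, so their dependence on the processing was not tested. In plasma-like cells the log2 ratio of the replication sum (-0.07) was -0.051 with cell cycle genes kept in the clustering, -0.15 with all UMIs as denominator and -0.050 with cells thinned. With cells thinned the interval of this sum (-0.106 to 0.0067) included 0. The log2 ratio of the mitotic sum (-0.13) was -0.11, -0.21 and -0.11 under the same settings. In T and innate lymphoid cells the replication sum (-0.21) was -0.27 with at most 5% mitochondrial UMIs, -0.088 with the mixed cluster counted as lymphoid and -0.16 with cells thinned. The mitotic sum (-0.62) was -0.67, -0.24 and -0.40 under these, -0.50 without cells that hold T and plasma RNA and -0.51 without lymphoid cells over 10% immunoglobulin. Cycling shares moved with the threshold. In plasma-like cells they were 17.9% (F/F) and 15.5% (CD4-Cre) with at least 2 calling genes, 6.06% and 5.27% with at least 5, and 32.5% and 29.2% without thinning. In T and innate lymphoid cells they were 9.83% and 8.62%, 2.27% and 1.53%, and 12.1% and 11.1%, and 4.13% in CD4-Cre with the mixed cluster counted. Without Pole2, a calling gene seen in 21.1% and 21% of plasma-like cells not called cycling, the plasma-like shares were 10.3% and 9.33%. Among single genes, Ccnb1 in lymphoid cells turned from -0.63 to 0.32 with cells thinned, and Aurka in plasma-like cells lay between -1.31 and -0.68. Of the 9 lymphoid calls, 8 fell short of 1.5-fold with the mixed cluster counted: Ccna2 (-0.22), Ccnb1 (-0.44), Cdk1 (-0.22), Ube2c (-0.37), Mki67 (-0.21), Top2a (-0.23), Tpx2 (-0.34) and Cenpf (-0.55), while Plk1 (-0.80) did not. With cells thinned, intervals included 0 for Ccna2 (-0.27), Ccnb1, Cdk1 (-0.20), Plk1 (-0.68), Tpx2 (-0.75) and Cenpf (-0.32), and Top2a (-0.50) fell short of 1.5-fold. Without cells that hold T and plasma RNA, Ccna2 (-0.57), Ccnb1 (-0.42) and Top2a (-0.54) did. Top2a, at the limit itself (-0.59), also did under 4 further settings, and Ccnb1 under 2. Depth limits calls in small classes, where only 12 members in macrophage-like cells had 100 UMIs.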
